A study of Bos taurus with 30 samples.

Results

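SEMA4A was described in skin biopsies of cattle at sites where ticks feed, before and after infestation. The animals were an F2 generation bred from Gyr, a Bos indicus breed, and Holstein, a Bos taurus breed. The gene is 1 of those named on an Affymetrix bovine expression array, and every probe set annotated to it was taken, which gave 2 of 24016 probe sets: one whose name ends in S1_at, called the main probe set below, and one ending in S1_a_at, the second probe set. SEMA4A was selected on its difference between resistant and susceptible skin at 24 h, where it ranked 5 by p among 13809 probe sets and 2 among those with a gene symbol. Values from that comparison, and from any that uses the 24 h arrays, are therefore given as a description with no test.

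The 30 arrays came from 13 animals of the same F2 cross, 6 labelled tick resistant and 7 labelled tick susceptible. Resistant skin was measured on 5 arrays at 0 h (before infestation), 6 at 24 h and 5 at 48 h after tick infestation. Susceptible skin was measured on 3, 6 and 5 arrays at the same times. The animals' age and the way resistance was scored are not stated in the labels, and no uninfested skin was measured at 24 h or 48 h. Not every animal had an array at each time.

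Semaphorins are secreted or membrane-bound signalling proteins that share a sema domain and act mainly through plexins, with neuropilins as co-receptors of the secreted kind. SEMA4A is a transmembrane semaphorin best known from the immune system, where on dendritic cells it co-stimulates T cells and on T cells it favours the Th1 fate. It binds plexins of the B group and plexin D1, restrains angiogenesis in endothelial cells, and is also made by epithelial cells, keratinocytes of the epidermis among them.

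Values are log2 MAS5 signals with a common trimmed mean in every array, so that 1 unit is a 2-fold difference in signal. The biopsies carried strong keratinocyte and dermal signals: KRT5 and KRT14, keratins of the basal epidermal layer, averaged 14.25 and 13.75, KRT10 and DSG1 of the upper layers 11.29 and 13.53, and the collagen genes COL1A1 and COL3A1 12.54 and 14.91, where array medians lay between 7.17 and 7.40. No probe set was named KRT1. One array, resistant 01 at 48 h, lay far out on principal component 1, at 65.6, with the array after it at 38.3. In the 100 probe sets that varied most from animal to animal, resistant arrays 03, 04 and 05 of 0 h correlated best with later arrays of 04, 05 and 06, not with their own number. The other 5 arrays at 0 h correlated best with a later array of their own number, so changes within an animal are uncertain for those 3 numbers, while their phenotype is not in question.

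SEMA4A gave a signal near the middle of the array. The main probe set averaged 7.65 over the 30 arrays, ranged from 6.77 to 8.37 and lay above the array median in 25 of them, at percentile 43.3 to 63.3 of the probe sets. The second probe set averaged 5.11, lay below the median in all 30 arrays (percentile 8.20 to 34.1) and did not pass the filter on low values, which asked for a signal at or above the array median in at least 3 arrays. Its spread within groups was 0.70 (SD), against 0.29 for the main probe set. Over the 30 arrays the 2 probe sets had a Pearson correlation of 0.32 and a Spearman correlation of 0.20, and 0.22 and 0.10 after the group means were subtracted. Probe sets of the a_at kind match more than 1 transcript of a gene, and levels of different probe sets are not compared with each other.

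**Figure D1:**
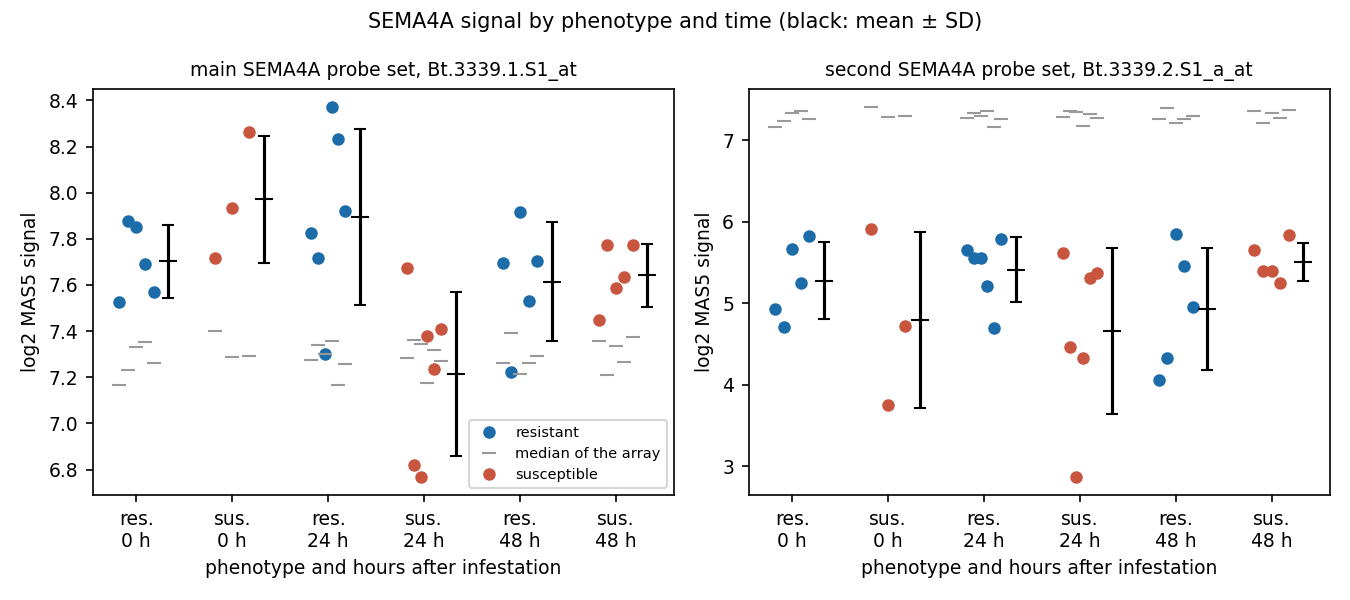
Log2 MAS5 signal of the main (left) and second (right) SEMA4A probe set in each array (points), by phenotype and time, with the group mean ± SD in black and the median of each array as a grey dash. In the main probe set the susceptible 24 h group sits lowest, with a mean of 7.21; the second probe set lies below the array median in all 30 arrays.

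At 24 h, the main probe set read 7.30 in the lowest, 7.87 in the median and 8.37 in the highest of the 6 resistant arrays. In the 6 susceptible arrays it read 6.77, 7.31 and 7.67. The 2 groups overlapped: resistant animal 03 (7.30) lay within the susceptible range and susceptible animals 08 (7.67), 11 (7.38) and 13 (7.41) within the resistant one, while susceptible animals 09 (6.82) and 10 (6.77) held the 2 lowest values of the series. The means were 7.89 ± 0.38 (SD, n = 6) and 7.21 ± 0.36 (SD, n = 6), a log2 difference of 0.68 ± 0.17 (SE), or 1.60-fold. Leaving out 1 array at a time moved the difference between 0.58 (without resistant 04) and 0.80 (without resistant 03). As in any bulk biopsy, fewer cells of a type and less SEMA4A RNA per cell cannot be told apart. In this comparison limma called 0 of 13809 probe sets (0%) at an adjusted p under 0.05, with 608 at an unadjusted p under 0.05.

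The second probe set lay on the same side at 24 h with a wider spread. It read 4.69, 5.55 and 5.79 (lowest, median and highest) in resistant arrays and 2.87, 4.89 and 5.61 in susceptible ones. The difference was 0.75 ± 0.41 (SE), and animal 10 was again the lowest.

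Before infestation, the mean of the main probe set was the lower of the pair in resistant animals, by less than the test could separate. Resistant animals 01 to 05 read 7.53, 7.88, 7.85, 7.69 and 7.57, a mean of 7.70 ± 0.16 (SD, n = 5). Susceptible animals 09, 10 and 11 read 7.72, 7.93 and 8.27, a mean of 7.97 ± 0.28 (SD, n = 3). The groups overlapped, and the difference of -0.27 ± 0.22 (SE; 95% interval -0.71 to 0.18) did not pass limma's test (adjusted p = 0.99995), in a comparison that called 0% of 13809 probe sets and had 623 at an unadjusted p under 0.05. An exact permutation of the 8 arrays gave p = 0.107 (two-sided; 0.667 adjusted over 8 exact tests), where 0.0179 was the smallest p possible. Without the 3 resistant arrays of uncertain number the difference was also -0.27, and without susceptible 11, the highest array, it was -0.12.

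At 48 h the phenotypes gave nearly the same signal. Resistant animals 01, 02, 03, 05 and 06 read 7.70, 7.22, 7.92, 7.53 and 7.70, a mean of 7.61 ± 0.26 (SD, n = 5). Susceptible animals 07, 09, 10, 11 and 13 read 7.45, 7.77, 7.59, 7.63 and 7.77, a mean of 7.64 ± 0.14 (SD, n = 5), and all lay within the resistant range. The difference was -0.03 ± 0.19 (SE; 95% interval -0.41 to 0.36; limma adjusted p = 0.976), in a comparison that called 0.0145% of probe sets, 2 of 13809. The exact permutation p was 0.857 (0.875 adjusted). Without resistant 01, which stood apart, the difference was -0.05; without resistant 02, the lowest array, it turned to 0.07. The sign was also positive, at under 0.01, without susceptible 09 or 13.

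Averaged over the times that did not choose the gene, the mean of the 0 h and 48 h differences was -0.15 ± 0.14 (SE; 95% interval -0.44 to 0.15), with a limma adjusted p of 0.754; this contrast called 0% of probe sets, and 1428 had an unadjusted p under 0.05. It was -0.16 without resistant 01 at 48 h and -0.08 without susceptible 11 at 0 h. The same animals were sampled at several times, so these arrays are not wholly independent of those at 24 h.

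The second probe set gave no steadier picture outside 24 h. Its difference was 0.48 ± 0.52 (SE) at 0 h, of the opposite sign to the main probe set, and -0.58 ± 0.45 (SE) at 48 h. Neither passed limma's test over the 24016 probe sets without a filter (adjusted p = 0.999 and 0.761; 0% and 0.0167% called), and the exact permutation gave p = 0.482 and 0.175 (0.667 adjusted for both).

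**Figure D2:**
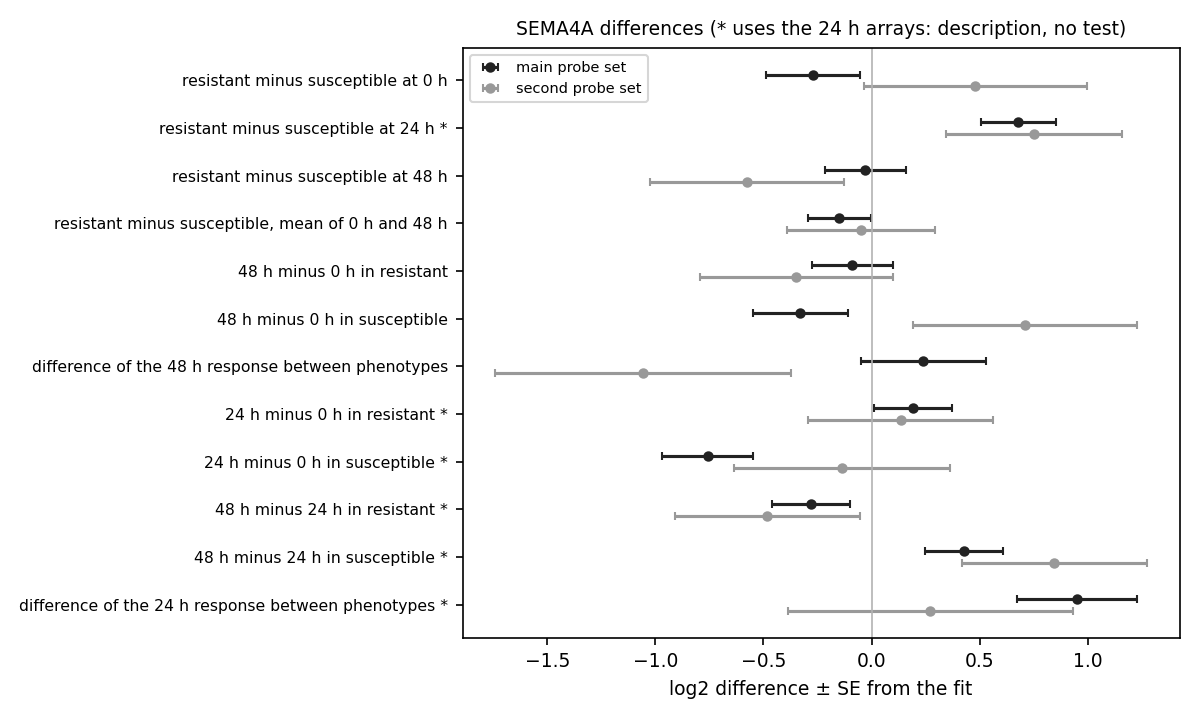
Log2 differences of SEMA4A (points, ± SE from the fit) for the main and the second probe set in the 12 comparisons of groups; those marked with an asterisk use the 24 h arrays and are a description. Outside the 24 h arrays, the main probe set's differences run from -0.33 to 0.24, and the 2 probe sets differ in sign in 3 of them: between phenotypes at 0 h, for 48 h against 0 h in susceptible skin, and for the difference of the 48 h responses.

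Ordered by the group means of the main probe set, susceptible skin at 0 h was highest (7.97), then resistant 24 h (7.89), resistant 0 h (7.70), susceptible 48 h (7.64), resistant 48 h (7.61) and susceptible 24 h (7.21). The 4 gaps between the first 5 groups were 0.03 to 0.19, within the SD of 0.29 inside groups. The gap above susceptible 24 h was 0.40. The ranges of neighbouring groups overlapped at every step.

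Within susceptible animals, the main probe set was lower at 24 h than at 0 h in each of the 3 animals measured at both times, with changes of -0.90 in animal 09, -1.16 in animal 10 and -0.89 in animal 11. From 24 h to 48 h it was higher in each of 4 animals, by 0.95, 0.82, 0.25 and 0.36 in animals 09, 10, 11 and 13. The susceptible 24 h arrays in these changes are among those that chose the gene, so the changes describe the same low values and are no separate support for them. The second probe set moved the same way in all of these 7 changes, with mean changes of -0.91 ± 0.52 (SD, n = 3) and 1.21 ± 0.90 (SD, n = 4). These use the same 24 h arrays. The largest, 2.53 in animal 10, starts from 2.87 at 24 h, at percentile 8.20 of its array. Animals 09, 11 and 13 changed by 0.93, 0.92 and 0.47 over that step. Over the groups, whose animals are not all the same, the main probe set's difference from 0 h to 24 h was -0.76 ± 0.21 (SE) and from 24 h to 48 h 0.43 ± 0.18 (SE). For the second probe set these group differences were -0.14 ± 0.50 (SE), close to 0, and 0.85 ± 0.43 (SE). The first of these comparisons called 0% of probe sets with limma (318 at an unadjusted p under 0.05) and the second 0% (259).

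Resistant animals did not all change in the same direction. Of the 2 whose numbers held at 0 h, animal 01 changed by 0.30 from 0 h to 24 h and animal 02 by -0.16. The 0 h arrays of uncertain number, 03, 04 and 05, read 7.85, 7.69 and 7.57. At 24 h the arrays of the same numbers read 7.30, 8.37 and 8.23. Those of animals 04, 05 and 06, whose later arrays they correlated best with, read 8.37, 8.23 and 7.92. Whether array 03 at 0 h was followed by a lower or a higher value is therefore not settled. By either set of numbers, arrays 04 and 05 were followed by higher values. Animals 01 and 02 changed in opposite directions. From 24 h to 48 h, 4 of 5 animals had lower values, with changes of -0.70 to -0.13, and animal 03 had a higher one, by 0.62. The group differences were 0.19 ± 0.18 (SE) from 0 h to 24 h and -0.28 ± 0.18 (SE) from 24 h to 48 h, in comparisons that called 0% of probe sets each (652 and 1332 at an unadjusted p under 0.05). The 24 h response differed between phenotypes by 0.95 ± 0.28 (SE), a value that rests on the arrays that chose the gene, in a comparison with 0% called. The second probe set gave 0.27 ± 0.66 (SE).

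**Figure D3:**
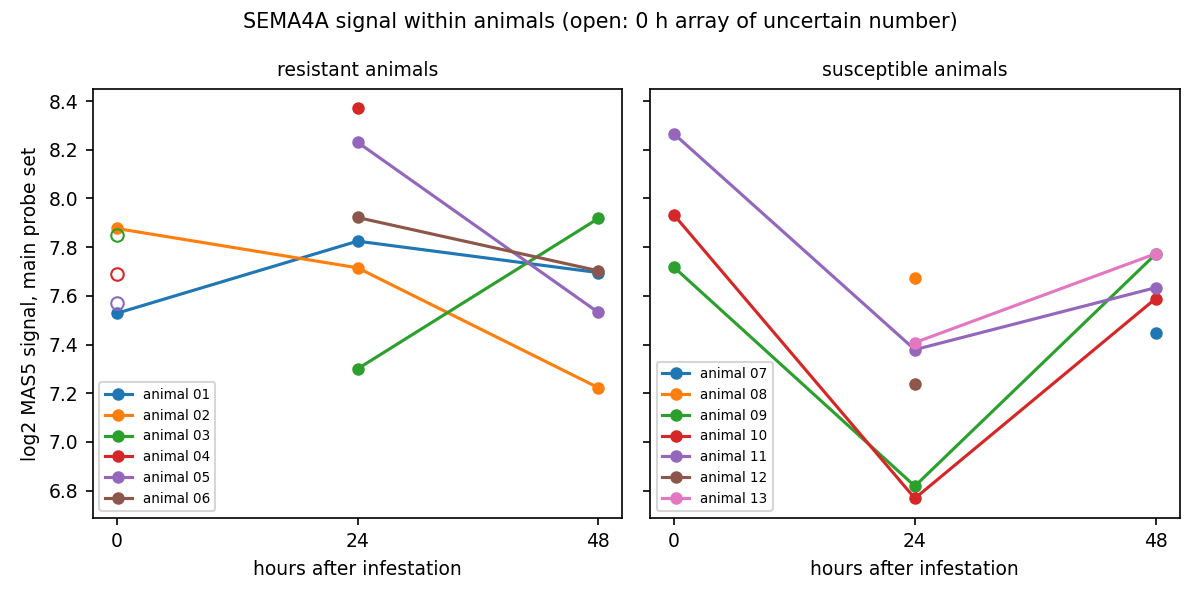
Log2 signal of the main SEMA4A probe set in each animal over time, resistant on the left and susceptible on the right; lines join arrays of 1 animal, and open circles are 0 h arrays of uncertain number, not joined. All 3 susceptible animals measured at 0 h and 24 h go down, with changes of -1.16 to -0.89, and all 4 measured at 24 h and 48 h go up.

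The comparison of 48 h with 0 h leaves out the arrays that chose the gene. In resistant skin the difference was -0.09 ± 0.19 (SE; 95% interval -0.47 to 0.30; limma adjusted p = 0.883), and -0.11 without resistant 01 at 48 h, the array that lay far out. It turned to 0.01 without resistant 02 at 48 h. Within animals, 2 of 4 were higher and 2 lower, of which 2 have an uncertain 0 h number, and the exact sign-flip test gave p = 0.875 (0.875 adjusted), where the smallest possible p was 0.125. In susceptible skin the difference was -0.33 ± 0.22 (SE; 95% interval -0.77 to 0.12; limma adjusted p = 0.999987), with 2 of 3 animals lower (exact sign-flip p = 0.5, 0.667 adjusted, smallest possible 0.25); without susceptible 11 at 0 h it was -0.18. The second probe set had the opposite sign there, at 0.71 ± 0.52 (SE), with 2 of 3 animals higher. The difference between these 2 responses was 0.24 ± 0.29 (SE; 95% interval -0.35 to 0.83; limma adjusted p = 0.9998), and 0.09 without susceptible 11 at 0 h. In the second probe set it was of opposite sign, -1.06 ± 0.68 (SE). The 3 comparisons called 0% of 13809 probe sets, with 1522, 131 and 405 at an unadjusted p under 0.05. In resistant skin limma called 2 probe sets when animals entered as a random block and 84 when they entered as a fixed one, SEMA4A not among them (adjusted p = 0.867 and 0.931), and 3 of the 0 h numbers behind these blocks are uncertain.

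Few relatives of SEMA4A were measured. Of 20 semaphorin genes, 5 had a named probe set, and all 5 had one that passed the filter: SEMA3B, SEMA4A, SEMA4F, SEMA6A and SEMA6D. Leaving SEMA4A aside, none of the other 4 passed limma's test in any of 9 comparisons between phenotypes or times, which called 0.0145% of probe sets at 48 h between phenotypes and 0% in the others. At 24 h, SEMA4F, the other class 4 member, differed by 0.15 ± 0.22 (SE) between resistant and susceptible skin. The secreted SEMA3B was at -0.85 ± 0.32 (SE), SEMA6A at -0.33 ± 0.18 (SE) and SEMA6D at -0.42 ± 0.31 (SE), so SEMA4A and SEMA4F were the 2 with a positive value. From 0 h to 24 h in susceptible skin, SEMA4F was at -0.36 ± 0.27 (SE), below 0 as SEMA4A was.

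Of 15 receptor genes, 9 were on the array and 5 passed the filter. PLXNB2, a plexin of the group that SEMA4A binds, averaged 10.30 and differed between phenotypes by 0.03 ± 0.14 (SE) at 0 h, -0.06 ± 0.11 at 24 h and -0.04 ± 0.12 at 48 h. NRP1, a neuropilin co-receptor, was at -0.14 ± 0.29, -0.15 ± 0.23 and 0.20 ± 0.25 (SE) at those times. PLXNA2, PLXNC1 and NRP2 lay between -0.24 and -0.12 at 24 h. Of the plexins reported for SEMA4A, those with no named probe set were PLXNB1, PLXNB3 and PLXND1. None of the 5 receptors passed the test in the 9 comparisons, nor did any of 20 measured genes of plexin signalling (29 listed), whose differences at 24 h ran from -0.31 to 0.38 with a median of -0.01, against 0.01 over all 7016 genes.

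Of the marker lists, basal keratinocyte genes had the highest correlation with SEMA4A over the 30 arrays, which include the 24 h arrays that chose the gene. All 7 measured genes of the list had a positive Pearson r (median 0.35), and the list mean had r = 0.42, or 0.59 without resistant 01 at 48 h. After group means were subtracted, r was 0.27 for the basal list mean and 0.28 for that of the melanocyte list, so the basal list was not the highest. Over the 18 arrays at 0 h and 48 h alone, r was 0.26 for the basal list and 0.31 for the Th1 list and for the other semaphorins. These are descriptions over arrays that share animals and scaling. The medians of the 16 other lists of at least 3 measured genes lay between -0.19 and 0.18. Among them, dendritic cell genes, where SEMA4A is best known, had a median r of 0.08 over 6 genes, T cell genes 0.05 over 8, macrophage genes -0.04 over 11, and differentiated keratinocyte genes 0.08 over 6. The highest was the sebaceous gland list and the lowest the endothelial list, in which 8 of 9 genes had a negative r.

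Before infestation, with 3 susceptible arrays, 6 of the 7 basal keratinocyte genes had a lower mean in resistant skin (median difference -0.35, against 0.004 over all genes). At 24 h, 6 of the 7 basal keratinocyte genes had a higher mean in resistant skin. Their median difference was 0.45, where 53.3% of all genes were higher and the median was 0.01. KRT15 differed by 1.09 ± 0.47 (SE), KRT14 by 0.98 ± 0.46 and COL17A1, a hemidesmosome collagen, by 0.69 ± 0.38, while ITGB4, its integrin partner, was at -0.21 ± 0.22. None of the 7 passed limma's test. The list mean ranged from 11.38 to 11.80 in resistant and from 10.48 to 11.80 in susceptible arrays at 24 h. From 0 h to 24 h in susceptible skin all 7 had lower values (median -0.55, against -0.02 over all genes). From 24 h to 48 h all 7 had higher ones (median 0.45, against 0.02), none past the test. This course was not particular to the basal list. Smooth muscle genes were lower in 7 of 7 (median -0.26), then higher in 7 of 7 (0.53). T cell genes were lower in 8 of 8 (-0.61), then higher in 7 of 8 (0.23). Sebaceous gland genes were lower in 5 of 7 (-0.46), then higher in 6 of 7 (0.22). Melanocyte genes went the other way, higher in 4 of 4 (0.93), then lower in 4 of 4 (-0.38). In the 3 susceptible animals with both arrays the basal list mean and SEMA4A were both lower at 24 h than at 0 h. From 24 h to 48 h the list mean was higher in animals 09 and 10 but lower in 11 and 13, where SEMA4A was higher in all 4. Over the 14 changes between neighbouring times that use no 0 h array of uncertain number, they had the same direction in 10. All 14 use a 24 h array, the kind that chose the gene, and changes of 1 animal share it. The count is therefore a description of changes that are not independent.

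At 48 h all 7 basal genes had a lower mean in resistant skin (median difference -0.57, against -0.02 over all genes), where SEMA4A was at -0.03. Much of that size came with resistant 01: without it all 7 were still lower, by a median difference of -0.23, and the difference of the list mean went from -0.63 to -0.23. In resistant animal 01 the list mean changed by -2.30 from 24 h to 48 h and SEMA4A by -0.13. The part of the basal keratinocyte content of the biopsies in the SEMA4A values was not tested.

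**Figure D4:**
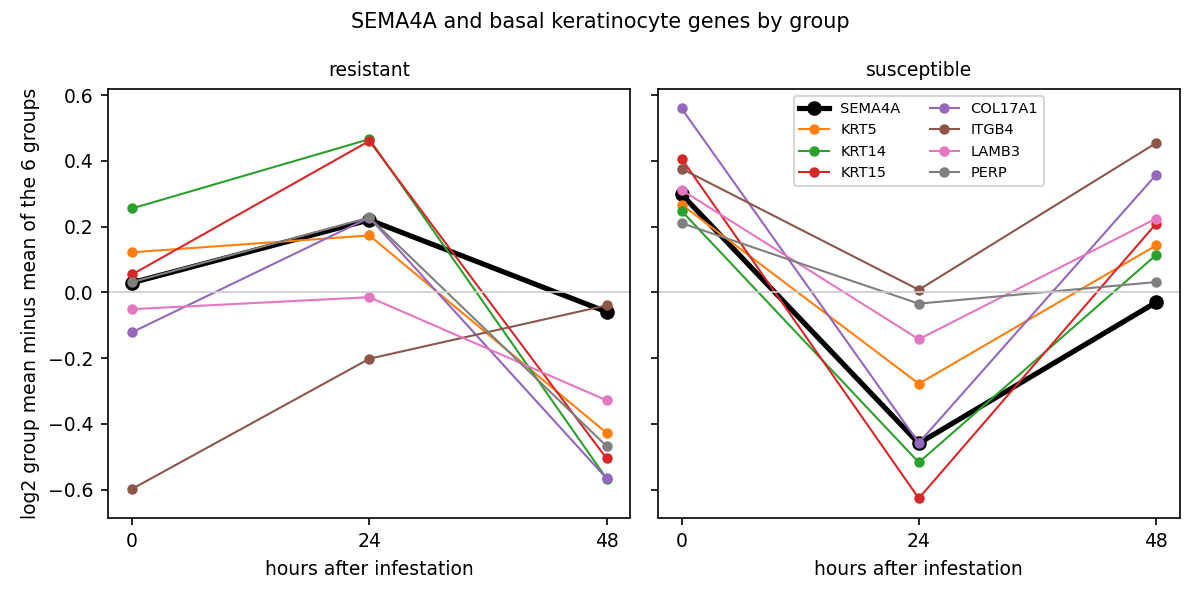
Group means of SEMA4A (black) and the 7 measured basal keratinocyte genes over time, each as a log2 difference from its own mean over the 6 groups, resistant on the left and susceptible on the right. In susceptible skin all 8 genes are lowest at 24 h; in resistant skin at 48 h most basal genes lie well below their mean in a group that includes resistant 01, and SEMA4A lies close to its mean.

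Other markers also differed in level at 24 h, though not only then. Endothelial genes had values below 0 in 8 of 9 genes between resistant and susceptible skin (median -0.575), and melanocyte genes in 4 of 4 (median -1.58, list mean 5.70 to 10.52 in resistant and 8.21 to 10.96 in susceptible arrays). Of all genes, 53.3% were above 0 at 24 h. Endothelial genes were below 0 in 8 of 9 at 0 h as well (median -0.44), and in 6 of 9 at 48 h (-0.07). The melanocyte median was -0.34 at 0 h and -2.10 at 48 h. Dendritic cell (0.01) and T cell (-0.02) medians at 24 h were near that of all genes. T cell genes were, however, lower at 24 h than at 0 h in susceptible skin in 8 of 8 genes, by a median of -0.61, where 44.8% of all genes were higher. That change starts from 3 susceptible arrays at 0 h. Between phenotypes at 0 h, 8 of 8 T cell genes were lower in resistant skin (median -0.58). None of these genes passed the test, and their part in the SEMA4A values was not tested. The array median had a correlation of -0.26 with SEMA4A over the 30 arrays, and the 3' to 5' differences of the GAPDH and actin controls, which read RNA integrity, had -0.02 and 0.06. The actin differences were large and varied, from 1.04 to 5.76 log2 units. Their group medians ran from 2.63 (resistant 0 h) to 4.40 (resistant 48 h), with 3.73 in resistant and 3.49 in susceptible skin at 24 h. The part of RNA integrity in the SEMA4A values was not tested.

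Among 7015 other genes, the 6 whose pattern over the 30 arrays was most like that of SEMA4A were RBM19, a ribosome biogenesis factor (r = 0.63), HS6ST1, a heparan sulfate sulfotransferase (0.63), CYB5R4 (0.62), TTC22 (0.61), ARID5A, an RNA-binding regulator of inflammatory transcripts (0.61), and PLPP2, a lipid phosphate phosphatase (0.58). Their Spearman correlations ran from 0.43 to 0.66. All 6 lay higher in resistant than in susceptible skin at 24 h, TTC22 by 0.80 ± 0.23 (SE), RBM19 by 0.59 ± 0.22, ARID5A by 0.47 ± 0.18 and HS6ST1 by 0.16 ± 0.14, which a likeness to SEMA4A partly fixes. The 4 with the most opposite pattern were TSPAN4 (-0.57), the fatty acid transporter CD36 (-0.56), FMR1 (-0.55) and FGL1 (-0.54). Between resistant and susceptible skin at 24 h, FGL1 was at -0.72 ± 0.29 (SE) and TSPAN4 at -0.54 ± 0.18 (SE). After the group means were subtracted, the 6 most alike were HS6ST1 (0.65), CHUK (0.62), SNAPC1 (0.62), AP1B1 (0.59), RBM19 (0.59) and CCDC92 (0.59), and the 4 most opposite ST7, SDF4, DLAT and DDX1 (-0.60 to -0.59). Thus 2 genes, HS6ST1 and RBM19, were named both ways. No basal keratinocyte gene was among those named.

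**Figure D5:**
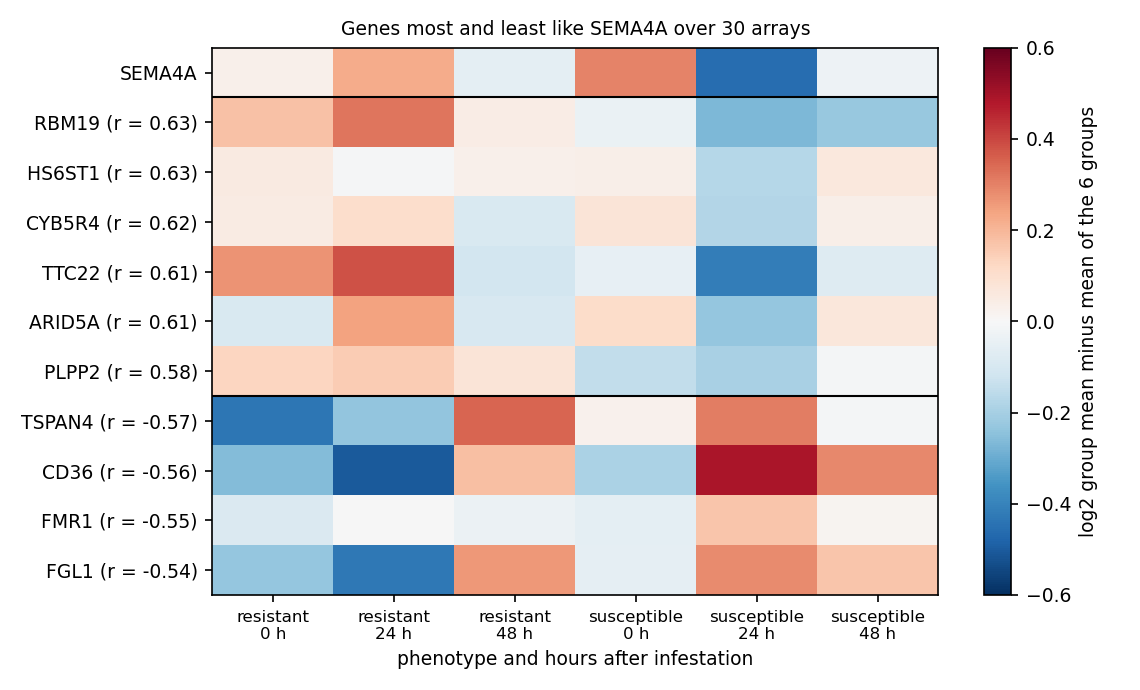
Group means of SEMA4A, the 6 genes most like it and the 4 most opposite over 30 arrays, each as a log2 difference from its own mean over the 6 groups (colour, limited to ± 0.6), with the Pearson r beside each name. The 6 alike genes are at their lowest, or close to it, in susceptible skin at 24 h, and the 4 opposite genes are above their mean there.

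The genes beside SEMA4A in RefSeq's order (ARS-UCD2.0) did not share its pattern. Of the 5 protein-coding genes on either side, 8 were measured, and their correlations with SEMA4A ran from -0.15 to 0.17. The nearest, SLC25A44, a mitochondrial carrier, and LMNA, which encodes lamins A and C, differed between phenotypes at 24 h by 0.06 ± 0.13 (SE) and 0.10 ± 0.17 (SE).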

How the data were processed

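The deposited values of 30 arrays are log2 signals, a scale read from the values; MAS5 is named in the submitters' processing notes, and its version and the genome build are not given in the sources used here. RNA was amplified from 50 ng with a 3' IVT kit, per the labels' protocols. The linear signals had a 2% trimmed mean of 500 in every array. The number of arrays limits the precision. No further normalization was applied. The table held 24128 probe sets. Leaving out 112 controls gave 24016, of which 13809 at or above their array's median in at least 3 arrays were kept. Symbols came from the platform annotation: 13292 probe sets had 1, 86 several and 10638 none. RefSeq gene IDs matched 13263 of the 13292. A gene was read by its kept probe set of highest mean (7016 genes).

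limma 3.58.1 in R 4.3.3 fitted 6 group means to all arrays (lmFit, eBayes with intensity trend), with two-sided tests and Benjamini-Hochberg adjustment over the kept probe sets, and was tested on simulated data. Animal numbers come from the titles. Same-numbered arrays are of 1 animal by their labels, and their deviations from the group means had correlations of -0.24 to 0.63. SEMA4A, the lists and the rule for named genes (every SEMA4A probe set, class 4 semaphorins and SEMA4A receptors, and the 6 most and 4 least correlated genes; the other semaphorins, PLXNA2, PLXNC1 and NRP2 are named beside them, chosen after their values were seen, as are the markers named from each list and the 2 nearest neighbours) were chosen with earlier results of these data known. Alternatives were quantile normalization, median centring, no filter, an offset of 16 on the linear signal, the animal as a random or fixed block, fewer arrays, no trend, array weights and the second probe set. Lists without resistant 01 at 48 h, over the 0 h and 48 h arrays alone, and changes between neighbouring times were added after the data were seen. Lists of Th1, Th2, B cell, neutrophil, mast cell, fibroblast, smooth muscle and neural genes had no gene past the test. Plots used matplotlib 3.10.9 in Python 3.11.15.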

Additional observations from a re-analysis of the deposited data

How the results depend on the processing

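The 24 h difference of the main probe set stayed between 0.61 and 0.69 over the 8 alternatives run on it, and between 0.58 and 0.80 with 1 array left out. The 6 tested comparisons did not pass the threshold under any alternative or with any 1 array left out (lowest limma adjusted p 0.666). With array weights the 48 h difference between phenotypes turned to 0.0161, and with the second probe set the 0 h difference was 0.48, the 48 h against 0 h difference in susceptible skin 0.71 and the difference between 48 h responses -1.06. Leaving out 1 array gave -0.40 to -0.12 between phenotypes at 0 h, -0.105 to 0.0692 at 48 h and -0.21 to -0.08 for their mean. For 48 h against 0 h it gave -0.165 to 0.00923 in resistant and -0.46 to -0.18 in susceptible skin, and 0.09 to 0.37 for their difference. With the animal as a random replicate block the 24 h difference was 0.68, and for 48 h against 0 h the values were -0.08 in resistant and -0.34 in susceptible skin; as a fixed block they were -0.05 and -0.35. SEMA4A was not called with either block, which called 2 and 84 probe sets for 48 h against 0 h in resistant skin, where the fit without a block called 0. The fixed block gives no value between phenotypes, since each animal has 1 phenotype. The cause of the differences between probe sets was not tested.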
